A study of Mus musculus with 18 samples.

Results

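The genes described here encode the extracellular matrix and surface proteins typical of fibroblasts and other mesenchymal cells: collagens, proteoglycans, elastic fibre proteins, adhesive and matricellular proteins, enzymes that process the matrix, and mesenchymal surface markers. They were chosen by name from a list of 39 symbols, and each gene was represented by 1 probe set, the one with the highest mean log2(signal + 32) over all arrays. Of the 39 genes, 37 had a probe set annotated to them alone, out of 18193 genes represented in the data. Loxl2 had only probe sets shared with another symbol and Fbn1 was not analysed here. Several probe sets were present for 29 of the 37 genes, and 8 genes had 1.

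Fibrillar collagens assemble into the tensile fibres of connective tissue, after their chains have been hydroxylated, folded by chaperones and trimmed outside the cell. Lysyl oxidases then crosslink them, small leucine-rich proteoglycans regulate fibre diameter, and fibronectin, tenascins and thrombospondins link the matrix to integrins. Fibroblasts are the main source of this matrix, and mouse embryonic fibroblasts are commonly used as a feeder layer under embryonic stem cells. Undifferentiated embryonic stem cells are known to make little interstitial collagen.

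Gene expression in mouse embryonic stem cells was measured as RNA on Affymetrix arrays, with 3 biological replicates in each of 6 groups. All cells are labelled as the CGR8 line, cultured with serum and LIF. In 4 groups the cells had been transfected by lipofection with plasmids: an empty vector, Foxd3, CA-NFATc3 (the labels' name for the NFATc3 construct), or Foxd3 and CA-NFATc3 together. In the other 2 groups the cells carried a conditional Foxd3 knockout (Foxd3fl/fl:Cre-ERT) and were treated with DMSO (tamoxifen for 0 days) or with tamoxifen for 2 days; both of these groups carry the floxed Foxd3 alleles and the Cre-ERT transgene. Foxd3 is a forkhead transcription factor of embryonic stem cells and neural crest, and NFATc3 is a calcineurin-dependent transcription factor. No tamoxifen-treated cells without the floxed alleles were analysed here, so the drug and the deletion cannot be told apart. Feeder use, the promoter behind Cre-ERT, the time after transfection and the number of clones: none of these is given in the sources used here.

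Values were deposited signals on a linear scale, and a signal of 65.8, the median of all deposited values, served as the lower limit for testing. The Foxd3 signal went against 2 labels. Vector arrays had 443 ± 55.9 (SD, n = 3) and CA-NFATc3 arrays 451 ± 38.6. It was lower where Foxd3 had been transfected by label, at 237 ± 5.95 with Foxd3 alone (log2 -0.81, adjusted p = 0.00169) and 234 ± 37.7 with both (-0.84, adjusted p = 0.000816). These groups are therefore called by their labels throughout, and no direction of Foxd3 dose is drawn from them. In the knockout cells Foxd3 fell from 219 ± 25.9 with DMSO to 31.4 ± 29.6 with tamoxifen (adjusted p = 0.000146). Nfatc3 did not pass in any contrast of the transfected cells, at 1581 ± 31.4 with vector and 1732 ± 58.5 with CA-NFATc3, whereas the NFAT target Rcan1 rose from 1196 ± 60.6 to 3702 ± 776 (adjusted p = 2.05e-07). In the arrays labelled with both, Rcan1 was at 1441 ± 62.7, which did not pass against vector (adjusted p = 0.224) and was lower than with CA-NFATc3 alone (log2 -1.32, adjusted p = 2.35e-06). The contrasts that use these arrays are therefore between labelled groups that also differ in Rcan1. All 10 embryonic stem cell markers examined, among them Pou5f1, Nanog and Sox2, had a mean above the limit in all 6 groups. The median signal of an array lay between 55.2 and 67.1 for the 12 transfected samples and between 73.0 and 80.7 for the 6 others, and arrays within a group correlated at 0.981 to 0.988.

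The promoters of 5 members whose signals differed between the transfected groups are shown first, so that the sequence is at hand where their values are given. Each is the 250 bases before the transcription start, 5′ to 3′ on the gene's strand, from RefSeq on GRCm38.p6, and capitals mark each GGAAA or its complement TTTCC, the core motif bound by NFAT factors. The windows lie at chr1:45311288-45311537 (plus strand) for Col3a1, chr6:4505368-4505617 (plus) for Col1a2, chr16:57754738-57754987 (minus) for Col8a1, chr2:102901666-102901915 (minus) for Cd44 and chr5:77408046-77408295 (minus) for Igfbp7.
Col3a1: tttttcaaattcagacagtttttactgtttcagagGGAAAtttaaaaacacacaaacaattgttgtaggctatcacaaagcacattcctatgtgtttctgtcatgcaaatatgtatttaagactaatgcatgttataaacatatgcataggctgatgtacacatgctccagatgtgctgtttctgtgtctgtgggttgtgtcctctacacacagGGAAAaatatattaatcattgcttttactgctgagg
Col1a2: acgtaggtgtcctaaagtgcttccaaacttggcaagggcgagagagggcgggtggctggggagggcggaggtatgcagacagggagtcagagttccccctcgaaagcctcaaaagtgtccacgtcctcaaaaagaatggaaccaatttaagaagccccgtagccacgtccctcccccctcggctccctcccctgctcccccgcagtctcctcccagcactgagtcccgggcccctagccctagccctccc
Col8a1: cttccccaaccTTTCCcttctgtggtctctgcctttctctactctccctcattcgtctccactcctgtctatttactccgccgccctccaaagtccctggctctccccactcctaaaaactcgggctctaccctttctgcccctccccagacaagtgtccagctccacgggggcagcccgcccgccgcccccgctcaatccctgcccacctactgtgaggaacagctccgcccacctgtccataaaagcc
Cd44: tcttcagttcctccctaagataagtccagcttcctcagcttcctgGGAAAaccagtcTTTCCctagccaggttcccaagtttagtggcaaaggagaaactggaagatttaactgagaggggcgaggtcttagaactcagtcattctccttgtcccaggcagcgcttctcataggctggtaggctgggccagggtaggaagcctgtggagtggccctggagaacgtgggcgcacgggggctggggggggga
Igfbp7: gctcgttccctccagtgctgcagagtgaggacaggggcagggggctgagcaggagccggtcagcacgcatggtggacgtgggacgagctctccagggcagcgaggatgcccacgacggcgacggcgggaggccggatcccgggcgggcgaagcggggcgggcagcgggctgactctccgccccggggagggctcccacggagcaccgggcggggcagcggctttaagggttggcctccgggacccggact
The core was found 2 times each in the Col3a1 and Cd44 windows, 1 time in that of Col8a1, and not in those of Col1a2 and Igfbp7. None of these matches overlapped a CCAAT box (CCAAT), an AP-1 motif (TGANTCA) or a forkhead motif (TGTTTAC), each searched on both strands; the Col1a2 window held 1 CCAAT box. Windows of members on 1 chromosome were left out. Of the 37 members, 23 had an entry of the promoter table on the other chromosomes, with 28 windows in all. The core stood in 13 of these 28 windows (46.4%), and in 55.6% of all 32851 windows of the same length, among which that chromosome was kept. A match describes the letters only.

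In vector-transfected cells most of these genes were near the bottom of the scale, in knockout cells with DMSO they were clearly measurable, and with tamoxifen they were higher again. The mean signal reached 65.8 for 11 of 37 genes with vector, 13 with the Foxd3 label, 17 with CA-NFATc3, 16 with both labels, 32 with DMSO and 36 with tamoxifen. The median signal over the 37 genes was 30.1 with vector, 45.2, 51.8 and 54.6 in the 3 other transfected groups, 255 with DMSO and 1172 with tamoxifen. The 11 genes present in vector cells were Fn1, Pcolce, Fstl1, Vcan, Tgfbi, Col5a1, Igfbp7, Thy1, Pdgfrb, Loxl1 and Mfap5. A total of 25 genes were below 65.8 in all 3 vector arrays, Col1a1, Dcn, Postn and Lum among them. Signals of different probe sets have no common scale, so genes are not ranked against each other by level.

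**Figure D1:**
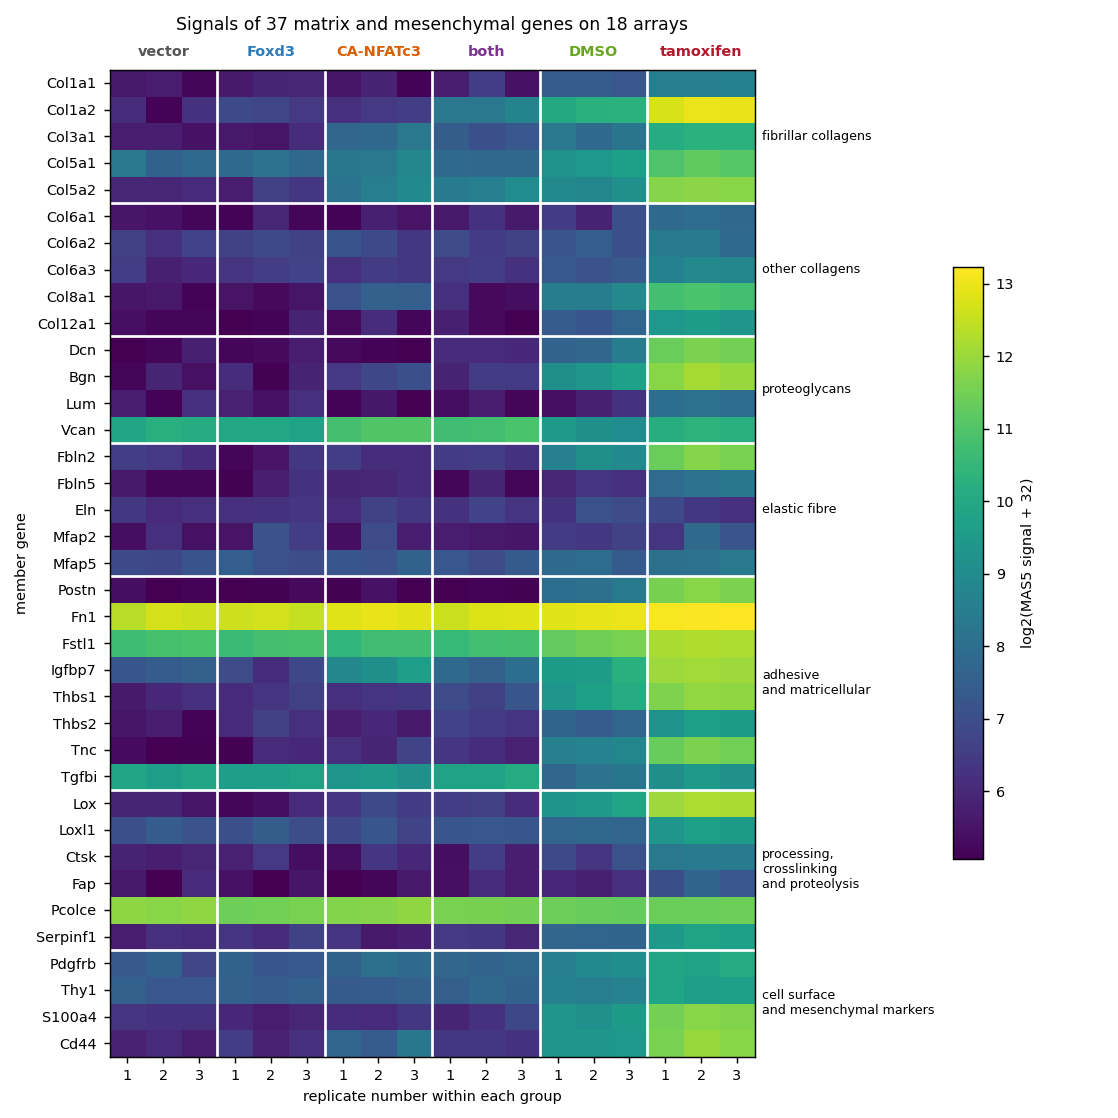
Colour gives log2(signal + 32) of the 37 genes (vertical axis, grouped by role) on each of the 18 arrays (horizontal axis, replicates 1 to 3 of 6 groups). Most genes are dark in the 12 transfected arrays and brightest with tamoxifen, whereas Fn1, Pcolce, Fstl1, Vcan and Tgfbi are bright in all groups or nearly so.

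Tamoxifen for 2 days was accompanied by higher signals of almost the whole group in the knockout cells. Against DMSO, 33 of 37 members were higher and 0 lower at an adjusted p under 0.05, and 4 did not pass (Eln, Mfap2, Mfap5 and Pcolce). Over all 12093 genes tested, 34.4% were called, 17.5% as higher and 16.9% as lower. The median log2 difference was 1.84 over the 37 members and 0.00 over all genes. Among the 31 members with both means at or above 65.8, the ratio of mean signals ran from 1.04 for Pcolce to 12.7 for Dcn, with a median of 4.34 and quartiles of 2.35 and 5.73. For 34 of 37 members all 3 tamoxifen arrays were above all 3 DMSO arrays, which held for 18.2% of all genes. The list was proposed with results of these data known, so these counts describe it and are not independent support.

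All 5 fibrillar collagens rose. Col1a2, a chain of type I collagen, had signals of 1002, 1173 and 1215 with DMSO and 6810, 8019 and 7955 with tamoxifen, a log2 difference of 2.72 (SE 0.08, adjusted p = 1.45e-09). The groups were far apart, with every tamoxifen array several times higher than every DMSO array. Col1a1, the partner chain in the type I trimer, was at 136, 141 and 125 with DMSO and at 350, 364 and 368 with tamoxifen, a difference of 1.24 (SE 0.12, adjusted p = 1.11e-05). Its signals were also separate, over a smaller distance. Col3a1, the type III chain of compliant tissues, went from 283, 203 and 264 to 1078, 1223 and 1216 (log2 2.10, SE 0.12, adjusted p = 1.37e-07). Col5a2, a type V chain that helps to nucleate collagen fibrils, went from 460, 414 and 537 to 3425, 3542 and 3514 (2.82, SE 0.09, adjusted p = 1.45e-09). The tamoxifen arrays of Col5a2 were within a few percent of each other. Its partner Col5a1 rose by 1.67 (SE 0.11).

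The other collagens rose as well, 5 of 5. Col8a1, a short-chain collagen of vessel walls and remodelling tissue, was at 333, 334 and 451 with DMSO and at 1747, 1891 and 1709 with tamoxifen (log2 2.18, SE 0.11, adjusted p = 6.37e-08). Col12a1, which binds along the surface of type I fibrils, rose by 1.99 (SE 0.13). The 3 chains of the beaded-filament collagen VI changed by less, at 0.95 (SE 0.18) for Col6a2, 1.41 (SE 0.25) for Col6a1, whose DMSO mean was under 65.8, and 1.53 (SE 0.12) for Col6a3.

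All 4 proteoglycans rose, and Dcn had the largest log2 difference of the members. Decorin (Dcn), which binds collagen fibrils and TGF-beta, was at 166, 183 and 326 with DMSO and at 2589, 3123 and 2878 with tamoxifen, a difference of 3.54 (SE 0.18, adjusted p = 6.37e-08). One DMSO array, replicate 3, was higher than the other two, yet far below all tamoxifen arrays. Biglycan (Bgn), its close relative, went from 523, 642 and 823 to 3447, 4484 and 3974 (2.54, SE 0.14, adjusted p = 1.13e-07). Lumican (Lum) stayed under 65.8 in the 3 DMSO arrays, with a highest value of 44.6, and reached 224, 243 and 216 with tamoxifen. Its rise was therefore at least 3.47-fold, taking 65.8 as the lowest DMSO level (adjusted p = 1.67e-05). Versican (Vcan), a large hyaluronan-binding proteoglycan already present in vector cells, rose from 664, 532 and 490 to 1096, 1281 and 1167 (1.04, SE 0.11, adjusted p = 2.69e-05). Averaged over its probe sets, the Vcan difference did not pass (adjusted p = 0.0536), although, of its 8 probe sets, the 2 others with a signal of 65.8 on at least 3 arrays were also higher, by 1.17 and 0.99.

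The elastic fibre genes did not move together: 2 of 5 rose and 3 did not pass. Fbln2, a fibulin of elastic and basement membrane structures, went from 360, 526 and 474 to 2630, 3373 and 3047 (log2 2.66, SE 0.13, adjusted p = 3.94e-08). Fbln5, which organises elastin deposition, rose by 1.97 (SE 0.17) from DMSO signals that were all under 65.8, or at least 3.75-fold. Elastin (Eln) itself had a log2 difference of -0.30 (SE 0.26, adjusted p = 0.395), from 44.9, 108 and 91.3 to 83.4, 51.0 and 41.5. Its groups overlapped. The microfibril proteins Mfap2 and Mfap5 were at 0.61 (SE 0.32, adjusted p = 0.17) and 0.45 (SE 0.16, adjusted p = 0.0522). Each passed when a single array was left out: Mfap2 without tamoxifen replicate 1 (adjusted p = 0.00951), and Mfap5 without DMSO replicate 1 (0.0431) or 2 (0.0378).

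All 8 adhesive and matricellular genes rose. Periostin (Postn), a matricellular protein of fibroblasts at sites of remodelling, was at 227, 241 and 296 with DMSO and at 2974, 3450 and 3091 with tamoxifen (log2 3.49, SE 0.10, adjusted p = 1.28e-09). In the vector arrays the same probe set was between 1.61 and 9.03, so vector, DMSO and tamoxifen arrays were far apart. Tenascin C (Tnc) went from 359, 377 and 416 to 2538, 3107 and 2849 (2.78, SE 0.09, adjusted p = 1.92e-09). The insulin-like growth factor binding protein gene Igfbp7 rose by 2.29 (SE 0.15). Thrombospondins Thbs1 and Thbs2, which regulate adhesion and TGF-beta activation, rose by 2.10 (SE 0.15) and 1.84 (SE 0.14). The TGF-beta-induced gene Tgfbi rose by 1.19 (SE 0.15) and the follistatin-like gene Fstl1 by 0.79 (SE 0.07). Fibronectin (Fn1) was high already, at 7193, 7772 and 8069 with DMSO, and reached 8995, 9169 and 9566 (0.27, SE 0.05, adjusted p = 0.00211). The mean of its probe sets did not pass (adjusted p = 0.0612).

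Of 6 genes for matrix processing, 5 rose. The crosslinking enzyme Lox went from 591, 663 and 907 to 4175, 4750 and 4685 (log2 2.62, SE 0.12, adjusted p = 3.9e-08). Its relative Loxl1 rose by 1.75 (SE 0.11). Serpinf1, which encodes pigment epithelium-derived factor, rose by 1.94 (SE 0.12), and the collagen-degrading protease Ctsk by 1.64 (SE 0.18). Fap, a protease of activated fibroblasts, was under 65.8 in all DMSO arrays and at 98.3, 176 and 123 with tamoxifen, at least 2.01-fold higher. Pcolce, which enhances the removal of the procollagen C-propeptide, was the exception, at 2729, 2533 and 2513 with DMSO and 2650, 2666 and 2733 with tamoxifen (0.05, SE 0.06, adjusted p = 0.533). Lum, Fbln5 and Fap reached the testing limit through the tamoxifen arrays alone and were not tested once 1 of these was left out. The number of called members was then 31 without tamoxifen replicate 1, where Mfap2 passed, and 30 without replicate 2 or 3.

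The 4 surface and mesenchymal markers rose. Cd44, the hyaluronan receptor, was at 639, 634 and 655 with DMSO and at 3049, 3995 and 3503 with tamoxifen (log2 2.39, SE 0.09, adjusted p = 7.7e-09). S100a4, a calcium-binding protein also called fibroblast-specific protein, went from 610, 545 and 696 to 2937, 3457 and 3247 (2.33, SE 0.09, adjusted p = 1.09e-08). Thy1, a surface glycoprotein of fibroblasts, and Pdgfrb, a receptor of mural and mesenchymal cells, rose by 1.10 (SE 0.10) and 1.03 (SE 0.12). The members called with tamoxifen had 44 other probe sets in all. Of these, 24 had a signal of 65.8 on at least 3 of the 18 arrays, and all 24 had the same sign as the one used. With the 20 dimmer ones included it was 41 of 44.

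**Figure D2:**
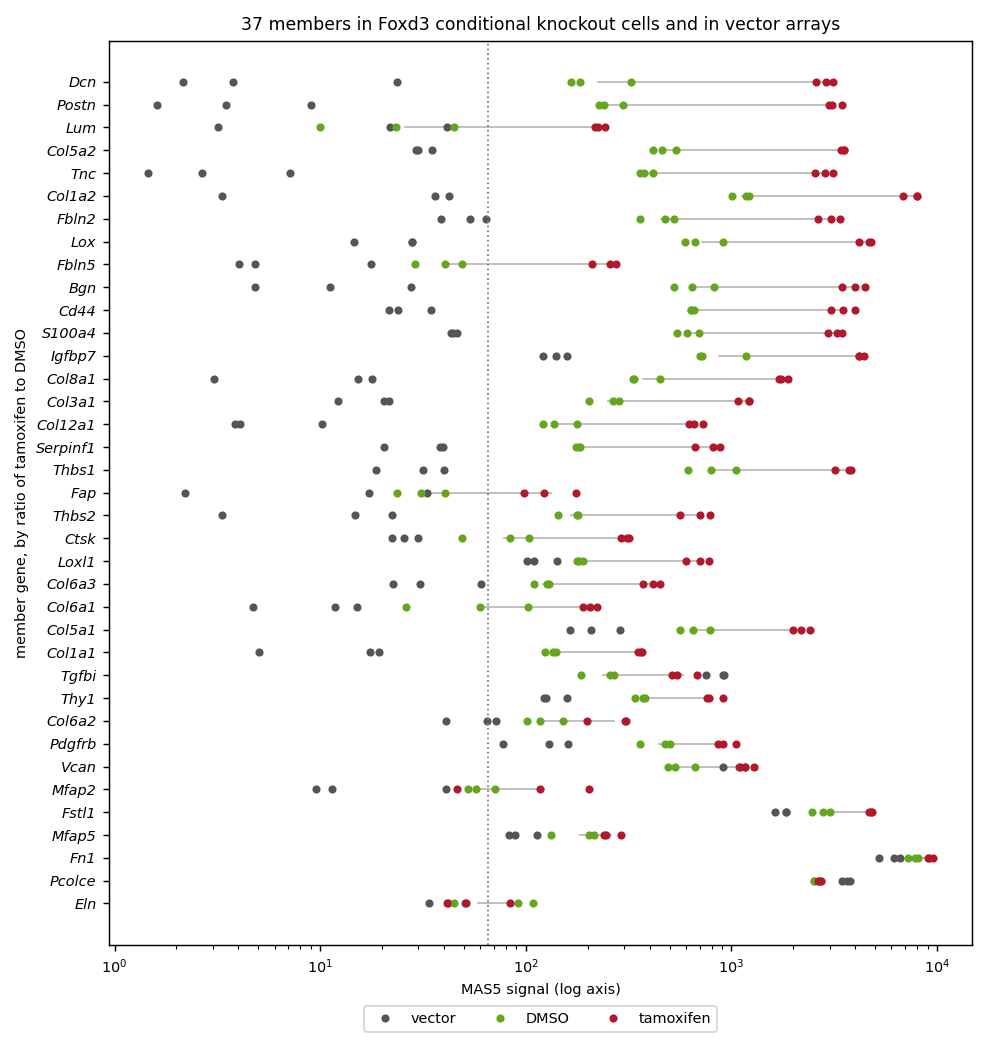
Each point is the signal of 1 array (horizontal log axis) for 1 of the 37 genes (vertical axis, ordered by the ratio of tamoxifen to DMSO), with a grey line joining the DMSO and tamoxifen means and the dotted line at 65.8. Tamoxifen points lie right of the DMSO points for all but a few genes at the bottom, and vector points lie left of DMSO except for Tgfbi, Vcan, Pcolce and a few others.

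Markers of fibroblasts outside the member list moved with this change. The summed signal of 10 such markers was 701 to 786 in the vector arrays, 1497 to 1659 with DMSO and 5241 to 5643 with tamoxifen, and 6 of the 10 rose with tamoxifen. The adhesion molecule Cdh11 went from a mean of 174 to 1975 (log2 3.30), the mesenchymal transcription factor Prrx1 from 112 to 1197 (3.13) and Twist2 from 118 to 717 (2.34). Pdgfra, Dpt and Cd248 also rose, whereas Mmp2, Fbln1, Meox1 and Tcf21 did not pass or were not tested, and the last 2 stayed under 65.8 in every knockout array. Blood and macrophage markers rose in 5 of 5, with a summed signal of 1391 to 1563 with DMSO and 7238 to 8294 with tamoxifen, and 295 to 397 with vector. Lyz2, a lysozyme of macrophages, went from 1001 to 6045 (2.56). Of 8 smooth muscle markers 5 rose, among them Myl9 and Acta2 (1.27 each), and of 4 endothelial markers the single one tested, Tek, fell by 0.62. The summed signal of endoderm markers was 10059 to 12396 with DMSO and 15023 to 16042 with tamoxifen. Dab2 (1.02), Sparc (0.85) and Col4a2 (0.53) were called higher, while Lama1 had a ratio of means of 0.73. Among trophoblast markers Tfap2c rose (1.22), while Krt7 (-0.55) and Krt18 (-0.33) fell. Of 10 embryonic stem cell markers 5 were lower, from Fgf4 (-1.50) and Tdgf1 (-0.49) to Sox2 (-0.17), and their summed signal went from 99556 to 102159 with DMSO to 86149 to 90672 with tamoxifen. The 3′ to 5′ ratio of the actin control probe sets, a measure of RNA integrity and labelling, was 2.06 to 2.24 with DMSO and 1.89 to 1.90 with tamoxifen. The same ratio of the Gapdh controls overlapped, at 0.978 to 1.04 with DMSO and 0.999 to 1.03 with tamoxifen. The part of these markers and of these ratios in the members' change was not tested. In bulk RNA, more cells of a type and more RNA per cell cannot be told apart.

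Within each treatment, the array that was highest for most members was also highest for several other lists, the fibroblast markers among them. DMSO replicate 3 had the highest signal for 26 of 37 members and the highest fibroblast marker sum of its group (1659). Tamoxifen replicate 2 had the highest signal for 28 of 37 members and the highest fibroblast sum (5643). These 2 arrays also had the highest sums of their groups for smooth muscle (17647 and 22689), endoderm (12396 and 16042), endothelial (331 and 262) and matrix receptor genes (18350 and 22456), and DMSO replicate 3 for trophoblast genes (14594). Blood and macrophage sums were lowest in the same arrays, at 1391 and 7238, as were those of embryonic stem cell markers, at 99556 and 86149. With 3 arrays a group, these orders are descriptions only.

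**Figure D3:**
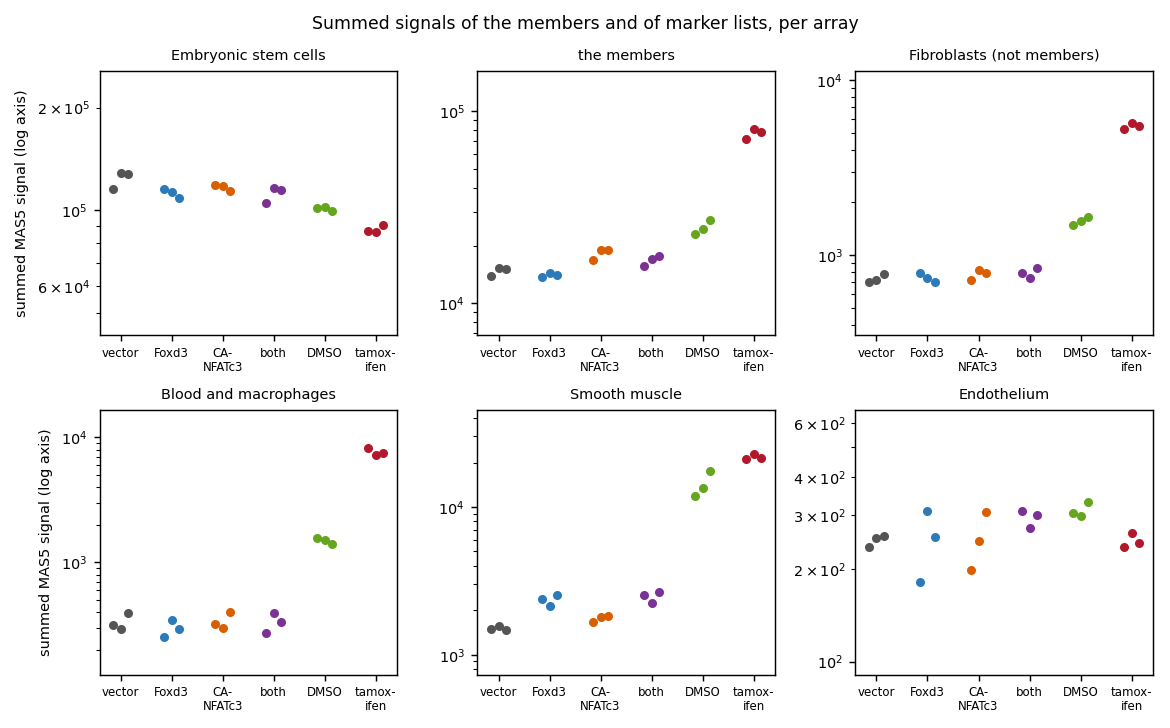
Summed signals (vertical log axis) of 6 gene lists on each of the 18 arrays (points, 3 per group on the horizontal axis). The members, the fibroblast markers that are not members and the blood and macrophage markers step up from the transfected arrays to DMSO and again to tamoxifen, whereas embryonic stem cell markers are lowest with tamoxifen, at 86149 to 90672.

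Genes that fold and process collagen chains moved less than the collagens themselves. Of 22 genes listed 19 had a probe set, of which 9 rose, 1 fell and 9 did not pass or were not tested with tamoxifen, with a median log2 difference of 0.22. The procollagen proteases Tll1 (1.33) and Bmp1 (1.03) and the collagen chaperone Serpinh1 (0.85) were higher, and the prolyl hydroxylase subunit P4ha1 was lower (-0.40). Among 15 matrix receptors 9 rose, including the collagen-binding integrin subunit Itga1 (2.07), the collagen receptor Ddr2 (1.41) and Itgb1 (0.76). Among 17 genes of the TGF-beta pathway, which drives matrix synthesis in fibroblasts, 6 rose and 1 fell. The latent TGF-beta binding protein Ltbp2 (1.90) and the receptors Tgfbr2 (1.83) and Tgfbr3 (1.42) were higher, the transcriptional repressor Skil was lower (-0.35), and no TGF-beta ligand was among the called genes.

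The levels of the knockout cells with DMSO and of vector-transfected cells were also compared, in 1 fit of all arrays. Both groups carry the CGR8 label, but only the knockout cells are labelled with the floxed alleles and Cre-ERT. Genotype, any further difference in cell line, treatment and experiment cannot be told apart in this contrast. With DMSO 31 of 37 members were higher and 3 lower than with vector, where 55% of all 12678 genes tested were called, 33% as higher and 22% as lower. The 25 members under 65.8 in all 3 vector arrays reached the testing limit through other arrays, and Lum, Fbln5 and Fap through the tamoxifen arrays alone. Counts and p-values of these members therefore hold for genes selected as high elsewhere. Higher calls made up 60.0% of all calls, and 50.3% after quantile normalization. The median difference was 1.65 over the members and 0.10 over all genes. Col1a2 differed most, from 36.0, 3.34 and 42.4 with vector to 1002, 1173 and 1215 with DMSO, at least 17.2-fold (adjusted p = 1.52e-12). Thbs1 was at least 12.5-fold higher, Lox at least 11.0-fold, Bgn at least 10.1-fold, Cd44 at least 9.77-fold and S100a4 at least 9.38-fold, each bound taking 65.8 as the lowest vector level. The lower genes were Tgfbi, at 186, 258 and 267 with DMSO against 919, 751 and 905 with vector (log2 -1.74, SE 0.13, adjusted p = 1.12e-09), Vcan (-0.88, SE 0.11) and Pcolce (-0.48, SE 0.06). One other probe set of Vcan was at 0.04 in this contrast, and the mean of its probe sets did not pass (adjusted p = 0.122). Fap, Lum and Mfap2 did not pass. The call was lost for Ctsk without DMSO replicate 3 (adjusted p = 0.078), for Fbln5 without DMSO replicate 2 (0.0587) or vector replicate 2 (0.0516), and for Eln without any 1 of 5 arrays (0.0519 to 0.219). All DMSO arrays lay above all vector arrays for 31 of 37 members and 29.2% of all genes. Beside these levels, 6 of 10 fibroblast markers that are not members, 7 of 8 smooth muscle markers and 4 of 5 blood and macrophage markers were higher with DMSO than with vector, and 7 of 10 embryonic stem cell markers were lower. Also higher were 6 of 9 trophoblast markers, with Krt18 (3.95), Krt8 (3.86) and Cdx2 (2.74) in the lead, and 7 of 11 endoderm markers, among them Dab2 (1.82) and Col4a1 (1.56). The part of all these markers in the members' levels was not tested.

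In the transfected cells CA-NFATc3 was accompanied by higher signals of a few collagens, Cd44, Igfbp7 and Vcan, while most of the member list stayed near the bottom of the scale. Of 37 members 18 were tested, and the other 19 were below 65.8 in all but at most 2 of the 12 arrays. Against vector, 7 were higher, 1 lower and 10 did not pass, with 5.86% of all 11609 genes called, 4.62% as higher and 1.24% as lower. The median log2 difference over all 37 members was 0.30, and over all genes it was 0.00. All CA-NFATc3 arrays lay above all vector arrays for 13 of 37 members, and for 10.0% of all genes. Col8a1 and Cd44 reached the testing limit only in the CA-NFATc3 arrays, so they could be tested only because they were high there, and without CA-NFATc3 replicate 1, 2 or 3 the number of called members was 5, 5 and 4.

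Among fibrillar collagens Col5a2 and Col3a1 rose with CA-NFATc3. Col5a2 was at 29.4, 29.8 and 34.9 with vector and at 256, 346 and 467 with CA-NFATc3, a log2 difference of 2.58 (SE 0.24, adjusted p = 5.94e-06) or at least 5.42-fold. Col3a1 went from 20.5, 21.6 and 12.2 to 184, 192 and 286 (2.32, SE 0.22, adjusted p = 5.94e-06), at least 3.35-fold. Both were separate by a wide gap, and in both the vector arrays had no level above the limit. The 2 genes reached the testing limit only in the CA-NFATc3 arrays and those labelled with both, so their p-values hold for genes selected as high there. Col1a1 stayed at 14.0, 25.8 and 3.35, beside 17.5, 19.4 and 5.05 with vector, and Col1a2 did not pass (0.56, SE 0.26, adjusted p = 0.291). Col5a1 had a difference of 0.55 (SE 0.19, adjusted p = 0.124), which passed without vector replicate 1 (0.0354). Col8a1 rose from 15.3, 17.8 and 3.05 to 106, 158 and 153 (1.96, SE 0.27, adjusted p = 0.000244), at least 2.11-fold. This bound rests on 1 probe set, since the others had means of 37.6 and 2.59 with CA-NFATc3, under the limit.

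Outside the collagens, Cd44, Igfbp7 and Vcan rose. Cd44 went from 23.9, 34.6 and 21.5 to 179, 138 and 276 (log2 1.93, SE 0.24, adjusted p = 9.82e-05), at least 3.01-fold. Igfbp7, measurable with vector at 122, 140 and 158, reached 437, 529 and 772 (1.80, SE 0.22, adjusted p = 9.15e-05). Vcan went from 912, 1164 and 1091 to 1766, 2037 and 2042 (0.87, SE 0.10, adjusted p = 3.32e-05). Arrays of the 2 groups did not overlap for any of the 3 genes. The mean of the Vcan probe sets did not pass (adjusted p = 0.175), although the 2 other probe sets with a signal of 65.8 on at least 3 arrays were higher, by 1.04 and 0.86. Fn1 rose by 0.33 (SE 0.09, adjusted p = 0.0332), from 5215, 6629 and 6173 to 7286, 7899 and 7382. This call was lost without any 1 of 5 arrays (0.0504 to 0.141), and another Fn1 probe set was at -0.15.

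Tgfbi was the member that fell, from 919, 751 and 905 to 619, 670 and 544 (log2 -0.47, SE 0.11, adjusted p = 0.0162). Its call was lost without CA-NFATc3 replicate 3 (0.112), vector replicate 1 (0.0772) or vector replicate 3 (0.0846). Pdgfrb had a difference of 0.62 (SE 0.20, adjusted p = 0.0838), which passed without vector replicate 2 (0.0313). Among members too low to be tested, Bgn went from 4.84, 27.8 and 11.2 to 54.0, 79.4 and 102, and Lox from 23.5 ± 7.70 (SD, n = 3) to 64.9 ± 17.9. Other Bgn probe sets, about as bright with tamoxifen, had means of 14.9 and 10.5 with vector. With CA-NFATc3 they were at 27.1 and 11.4, so the Bgn difference rests on the probe set used. Most of these values are below the limit and carry no fold. Dcn, Postn and Lum, which rose with tamoxifen, had means of 3.87, 5.44 and 7.29 with CA-NFATc3.

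**Figure D4:**
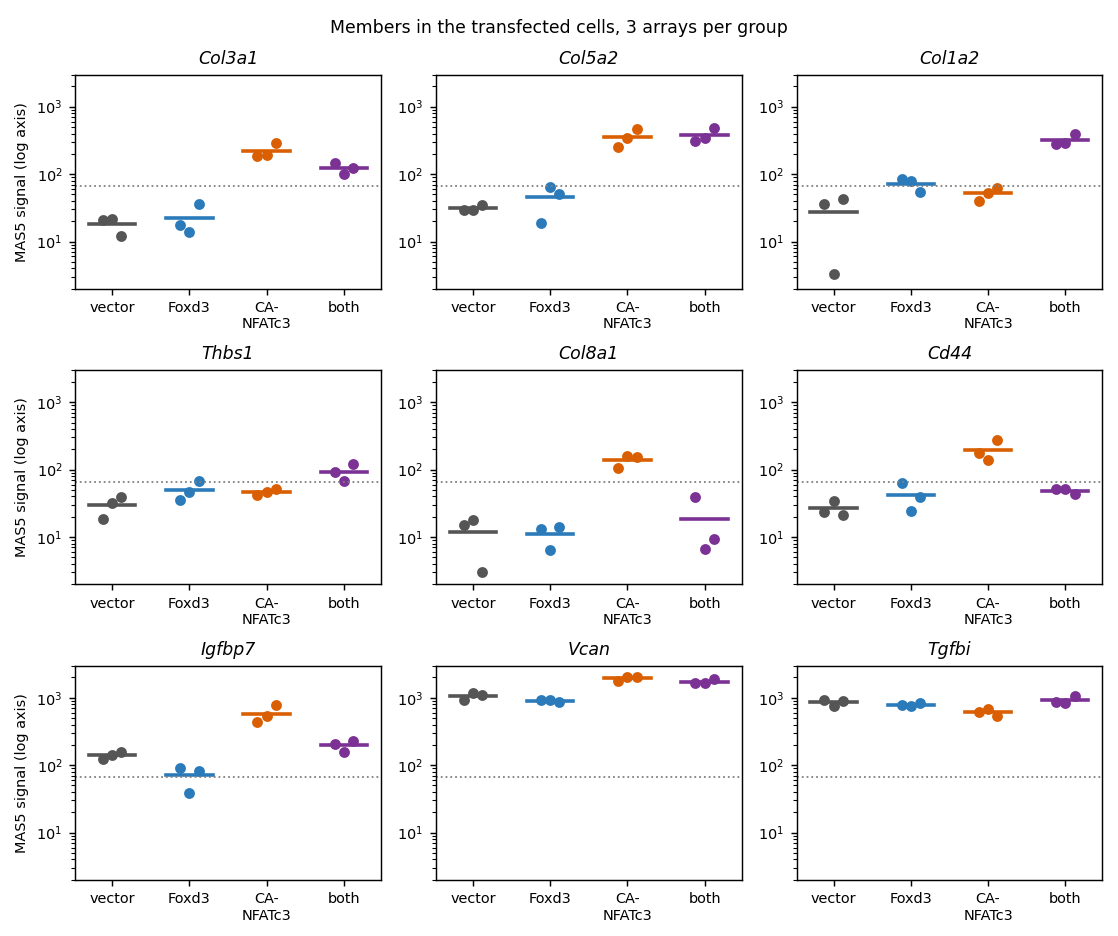
Signals (vertical log axis) of 9 members on the 12 transfected arrays, 3 points per group with the mean as a bar and 65.8 as a dotted line. Col3a1 and Col5a2 are high in both groups with CA-NFATc3, Col8a1, Cd44 and Igfbp7 are high mainly with CA-NFATc3 alone, and Col1a2 is high mainly in the arrays labelled with both.

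Most fibroblast markers outside the member list were too low to be tested with CA-NFATc3, so their response is not known. Under 65.8 in all CA-NFATc3 arrays were 7 of 10, among them Prrx1, Twist2 and Cdh11. The limma fit called 0 of the 2 tested, Mmp2 and Fbln1 (0 also without adjustment of p). The summed signal was 723 to 827, beside 701 to 786 with vector. Mmp2 (mean 265) and Fbln1 (337) made up most of it. Their means were 499 and 353 with DMSO and 478 and 300 with tamoxifen, so they did not rise there either. Of 11 genes of primitive and parietal endoderm 4 were higher with CA-NFATc3, with a summed signal of 9818 to 12374 beside 6377 to 7256 with vector. Col4a1 (2.97) and Col4a2 (2.23), chains of basement membrane collagen IV, and the transcription factor Sox17 (1.47) differed most among these. Of 9 trophoblast markers 3 were higher, Elf5 (2.06), Eomes (1.97) and Hand1 (0.88), and 0 of 10 embryonic stem cell markers passed (0 at an unadjusted p under 0.05). The part of these markers in the members' change was not tested.

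In the arrays labelled with both Foxd3 and CA-NFATc3, a partly different set of members was high. Against vector 5 members were higher and 1 lower of the 18 tested, with 4.82% of all genes called, 3.48% as higher and 1.34% as lower. Separate and higher arrays were seen for 12 of 37 members and for 10.6% of all genes. Col5a2 was at 315, 340 and 480 (log2 2.68, SE 0.24, adjusted p = 8.87e-06) and Col3a1 at 145, 101 and 124 (1.63, SE 0.22, adjusted p = 0.000314). Col1a2 was at 283, 285 and 391, at least 4.86-fold above vector (2.63, SE 0.26, adjusted p = 1.45e-05). All arrays of these 3 collagens were above all vector arrays. Col1a2 reached the testing limit in the 3 arrays labelled with both and 2 labelled Foxd3, and Thbs1 in the same 3 and 1 labelled Foxd3. Col3a1 and Col5a2 reached it only in the CA-NFATc3 arrays and those labelled with both. The p-values of these 4 genes therefore hold for genes selected as high there. Vcan rose by 0.71 (SE 0.10, adjusted p = 0.000372), to 1652, 1684 and 1884, and did not pass as the mean of its probe sets (0.375). Thbs1 rose by 1.01 (SE 0.23, adjusted p = 0.0175), to 92.3, 66.7 and 121 from 18.6, 31.7 and 39.9; this call was lost without the array labelled both replicate 3 (0.0971) or vector replicate 1 (0.0778). Pcolce fell by 0.29 (SE 0.07, adjusted p = 0.0196), to 3023, 2962 and 2906 from 3657, 3466 and 3759. Its call was lost without both replicate 2 (0.0628), both replicate 3 (0.0821), vector replicate 1 (0.0571) or vector replicate 3 (0.102). CA-NFATc3 and the arrays labelled with both share the vector arrays as control, so no overlap of these contrasts is given. Beside these values, 2 of 8 smooth muscle markers were higher than with vector, Tpm1 (0.76) and Tpm2 (0.54), as was the matrix protease Mmp2 (0.53) among the fibroblast markers outside the member list, whose summed signal was 744 to 851. Higher too were 4 of 11 endoderm markers, led by Col4a1 (1.21), Dab2 (1.05) and Col4a2 (0.93), the endothelial receptor gene Kdr (1.29) and the keratin gene Krt18 (0.64), while Tfap2c (-0.37) and Esrrb (-0.26) were lower. Their part in the result was not tested.

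**Figure D5:**
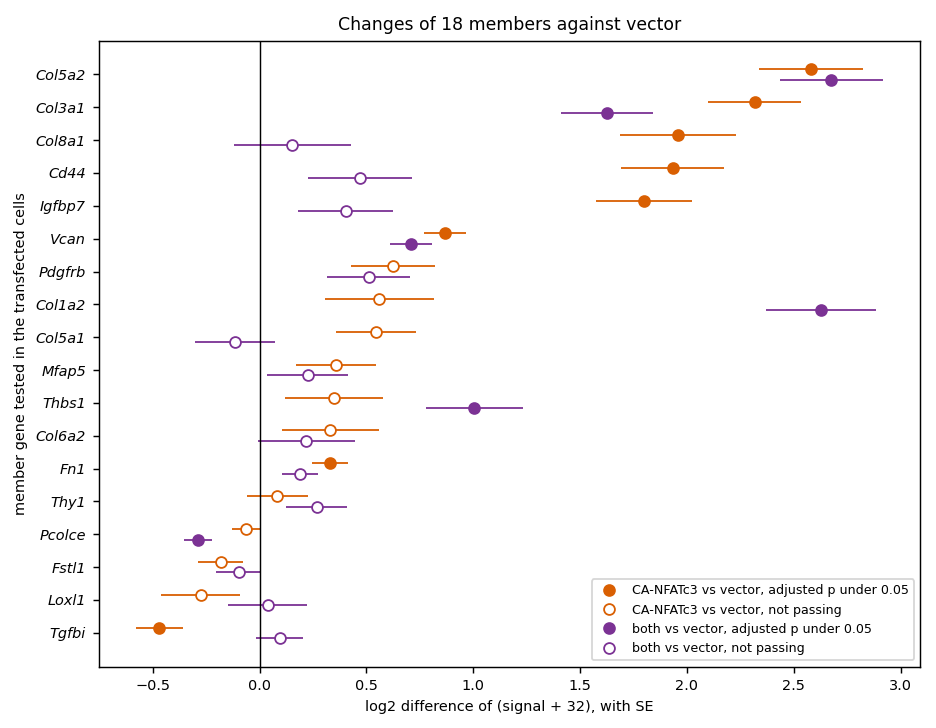
Log2 differences against vector (horizontal axis, points with standard errors) of the 18 members tested in the transfected cells, for CA-NFATc3 (orange) and the arrays labelled with both (purple), filled where the adjusted p was under 0.05. Col5a2 and Vcan are filled in both contrasts with similar values, Col1a2 lies far right only in purple, and Col8a1, Cd44 and Igfbp7 only in orange.

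The direct comparison of the arrays labelled with both and the CA-NFATc3 arrays separated these genes. Of the 18 tested, 2 members were higher and 4 lower, with 6.12% of all genes called, 2.44% as higher and 3.69% as lower. Col1a2 was higher by 2.07 (SE 0.26, adjusted p = 0.000113), from 40.2, 52.9 and 61.6 with CA-NFATc3, or at least 4.86-fold, and Tgfbi by 0.56 (SE 0.11, adjusted p = 0.00463), at 867, 844 and 1046. Col8a1 was lower by 1.81 on the log2 scale (-1.81, SE 0.27, adjusted p = 0.000603), at 39.2, 6.68 and 9.28. Cd44 was lower as well (-1.46, SE 0.24, adjusted p = 0.00135), at 52.3, 51.8 and 42.8. In both genes every array labelled with both lay under the limit and under every CA-NFATc3 array. Other Col8a1 probe sets, with means under 65.8 in these groups, gave -0.28 and -0.05. Other Cd44 probe sets gave -1.20 and, with means under 65.8 in these groups, -0.30 and 0.02. Col8a1 and Cd44 could be tested only because of the CA-NFATc3 arrays, and Col1a2 only because of the arrays labelled with both. Their p-values hold for genes selected as high there. Igfbp7 was at 203, 158 and 229 (-1.40, SE 0.22, adjusted p = 0.00097). Col5a1 differed by -0.66 (SE 0.19, adjusted p = 0.0489), a call lost without any 1 of 5 arrays (0.0603 to 0.252). The difference was -0.69 (SE 0.22, adjusted p = 0.0783) for Col3a1 and 0.10 (SE 0.24, adjusted p = 0.911) for Col5a2, neither of which passed. The other Col5a2 probe set was less alike in these groups. Against vector it gave 2.14 in the arrays labelled with both and 1.27 with CA-NFATc3. The similar Col5a2 levels therefore rest on the probe set used. Pcolce (-0.23, SE 0.07) did not pass (adjusted p = 0.0584), but passed once replicate number was a block (0.0168). Averaged over its probe sets Igfbp7 did not pass (0.143). Without CA-NFATc3 replicate 2 or 3, 3 members were called in place of 6. All arrays labelled with both lay above all CA-NFATc3 arrays for 5 of 37 members, and for 8.45% of all genes. They lay below all CA-NFATc3 arrays for 7 of 37 members, and for 8.84% of all genes. Markers of other cell types moved with these members. Of 11 endoderm markers 4 were lower than with CA-NFATc3, led by Col4a1 (-1.75), Col4a2 (-1.29) and Sox17 (-0.98), and of 9 trophoblast markers 3 were lower, Elf5 (-2.40), Eomes (-1.42) and Tfap2c (-0.48). The smooth muscle marker Tpm1 was higher (0.67). Their part in the result was not tested.

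The arrays labelled Foxd3 alone differed little from vector in this gene group. Pcolce fell by 0.34 (SE 0.07, adjusted p = 0.00993), to 2703, 2860 and 3038, and was the only member called of 18, where 2.88% of all genes were called, 1.71% as higher and 1.17% as lower. The call was lost without Foxd3 replicate 1 (0.0536) or vector replicate 3 (0.0659). Igfbp7 was at 92.0, 38.6 and 81.2 (-0.78, SE 0.22), which did not pass (adjusted p = 0.0792) but passed with a replicate block (0.0204). Col1a2 was at 83.4, 77.9 and 53.8 (0.87, SE 0.26, adjusted p = 0.0894). All 3 of these Col1a2 values lay above all vector arrays, which held for 2 of 37 members and 7.90% of all genes. All Foxd3 arrays lay below all vector arrays for 3 of 37 members and 8.71% of all genes.

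Set against the arrays labelled Foxd3, those labelled with both had 5 members higher, with 0.327% of all genes called, 0.319% as higher and 0.00861% as lower. Their arrays lay above all Foxd3 arrays for 9 of 37 members and 7.01% of all genes. These were Col5a2 (2.44, SE 0.24, adjusted p = 8.64e-05), Vcan (0.91, SE 0.10, adjusted p = 0.000164), Col3a1 (1.52, SE 0.22, adjusted p = 0.00334), Col1a2 (1.76, SE 0.26, adjusted p = 0.00364) and Igfbp7 (1.18, SE 0.22, adjusted p = 0.0294). The Igfbp7 call was lost without Foxd3 replicate 2 (0.126) or 3 (0.0606), or without both replicate 1 (0.105) or 3 (0.206). The mean of probe sets did not pass for Igfbp7 (0.491) and Vcan (0.565). The Col1a2 call was lost when 1 was added before the logarithm in place of 32 (0.346). Col1a2, Col3a1 and Col5a2 could be tested only because of arrays with CA-NFATc3 in their label. Their p-values hold for genes selected as high there.

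Whether the response to CA-NFATc3 differed with the Foxd3 label was tested as an interaction (the difference of both and Foxd3, minus that of CA-NFATc3 and vector). It was called for 2 members of 18, where 0.81% of all genes were called, 0.0861% as positive and 0.724% as negative. Cd44 had a term of -1.77 (SE 0.34, adjusted p = 0.0195) and Col8a1 of -1.79 (SE 0.38, adjusted p = 0.0383). Both genes reached the testing limit in the CA-NFATc3 arrays alone, the group on which the term turns, so their p-values hold for genes selected as high there. Other probe sets that reached 65.8 on at least 3 of all 18 arrays gave -1.81 and -0.36 for Cd44 and -0.43 for Col8a1. The sets that gave -0.36 and -0.43 had means under 65.8 in every transfected group, at most 20.1 and 37.6, so these values carry little information. Endoderm and trophoblast markers had negative terms as well, Col4a1 (-2.46), Elf5 (-2.10), Col4a2 (-1.69) and Eomes (-1.59), as did Rcan1 (-1.14), and their part in the members' terms was not tested. The Cd44 call was lost without both replicate 3 (0.0591), Foxd3 replicate 1 (0.054), Foxd3 replicate 3 (0.056) or vector replicate 3 (0.0615). That of Col8a1 was lost without any 1 of 8 arrays (0.0554 to 0.12), and neither gene was tested once a CA-NFATc3 array was left out. Col1a2 had a term of 1.20 (SE 0.36, adjusted p = 0.207), which passed without vector replicate 2 (0.0194), the array in which Col1a2 was at 3.34. Tgfbi had 0.68 (SE 0.16, adjusted p = 0.0595), which passed without vector replicate 2 (0.0322) and with a replicate block (0.0268). For Col5a2 and Vcan the terms were -0.14 (SE 0.34) and 0.04 (SE 0.14) and did not pass. With the other Col5a2 probe set, both against Foxd3 gave 1.755 and CA-NFATc3 against vector 1.27, so the sign was positive there. The term of that probe set was not tested. Since the Foxd3 signal itself was lower, not higher, in the groups labelled Foxd3, the term describes the labelled groups only.

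Genes that act on the same matrix moved in small numbers in the transfected cells. With CA-NFATc3 the prolyl 3-hydroxylase P3h2 (2.51), the chaperone Serpinh1 (0.99) and the lysyl hydroxylase Plod3 (0.68) rose and Crtap was lower (-0.31), among 19 collagen folding and processing genes with a probe set. Of 15 matrix receptors Sdc4 (1.04) and Itgb1 (0.48) rose, and of 17 TGF-beta pathway genes Ltbp1 (1.66), Ltbp3 (1.53) and Tgfb2 (0.81). In the arrays labelled with both, against those with CA-NFATc3, P3h2 (-1.25), Sdc4 (-0.95), Ltbp1 (-1.02) and Ltbp3 (-0.99) were lower. In those same arrays against vector, P3h2 (1.26), Serpinh1 (1.03), Tgfb2 (1.28), Itga8 (0.91), Itgav (0.63) and Skil (0.38) were among the genes called higher. Pcolce2 (-0.42) and Smad7 (-0.30) were among those called lower. P3h2 thus lay between its vector and CA-NFATc3 levels.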

How the data were processed

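Per probe set and array, the authors deposited an intensity: a linear MAS5 signal, as the submitters' processing notes name it, with no version. Trimmed of the extreme 2% at either end, the mean was 500 on every array. No detection calls were used. Of 45101 probe sets, 34945 had 1 gene symbol in the platform annotation, 932 had several and 9160 had none; 64 were controls. The RefSeq gene list of GRCm38.p6 held the Entrez number of 34741, and 0 symbols needed updating.

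After adding 32, log2 signals were fitted by limma 3.58.1 (R 4.3.3; lmFit, then eBayes with a trend) without covariates: the 12 transfected arrays, the 6 knockout arrays, and all 18 for DMSO against vector. A gene was tested if 3 or more of a fit's arrays had a signal of 65.8 or higher. Tests were two-sided, with Benjamini-Hochberg adjustment over every tested gene, and calls required an adjusted p below 0.05. P-values measure the spread between 3 arrays per group, labelled as biological replicates, and this number limits the precision. Alternatives were other offsets (16, 64 and 1), other filters, quantile normalization, the mean of a gene's probe sets, array weights, a replicate block, other sets of arrays in the fit and leaving out each array. An "at least" fold sets vector, DMSO or other low signals under 65.8 to that value. The code was tested on simulated data. Figures used Python 3.11.15 and matplotlib 3.10.9.

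The replicate numbers come from the sample titles. Residuals of same-numbered transfected arrays correlated at 0.104 to 0.315 in all 18 pairs (different numbers -0.282 to 0.0133), so the numbers were taken to pair these samples. The main fit has no such block. Standard errors, p-values and shares of all genes called in the transfected contrasts therefore ignore this pairing. The fit with the block is given where it changes a member's call, and its calls over all genes, more in each of these contrasts, are given at the end.

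Members and gene lists were chosen with earlier results of these data known. Named genes were all members, with values per array for the largest changes and for Col1a1, Col1a2, Col3a1, Fn1 and Vcan, and up to 3 called genes of each pathway or marker list; P4ha1, Skil, Crtap, Sox2 and further fibroblast markers were named after their values were seen.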

Additional observations from a re-analysis of the deposited data

Results flagged for a closer look

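For 2 members the interaction term of limma between CA-NFATc3 and the Foxd3 label passed. Both genes reached the testing limit of 65.8 only in the CA-NFATc3 arrays, so they could be tested only because they were high in the group on which the term turns, and the p-values carry that limit. For Cd44 the log2 term was -1.77 (adjusted p = 0.0195), with all 3 CA-NFATc3 arrays at 138 to 276 and all 9 other transfected arrays at 21.5 to 62.3. Of its other probe sets, the 2 that reached 65.8 on at least 3 arrays gave -1.81 and -0.36. For Col8a1 the term was -1.79 (adjusted p = 0.0383), with the CA-NFATc3 arrays at 106 to 158 and the other 9 at 3.05 to 39.2; of its other probe sets, the 1 that reached 65.8 on at least 3 arrays gave -0.43. Both calls were lost under several settings.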

How the results depend on the processing

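Of 95 member calls in the 8 contrasts, 73 were kept under every alternative that could test them, 22 were lost under at least 1, and 0 changed direction. Kept calls were 31 of 33 for tamoxifen against DMSO, 28 of 34 for DMSO against vector, 5 of 8 for CA-NFATc3 against vector, 3 of 6 for both against vector, 4 of 6 for both against CA-NFATc3, 2 of 5 for both against Foxd3, and 0 of 1 and 0 of 2 for Foxd3 against vector and the interaction. Using the mean of a gene's probe sets gave 4 called members with CA-NFATc3, 3 for both against vector, 2 for both against CA-NFATc3, 3 for both against Foxd3 and 1 for the interaction (Tgfbi, a different gene). Col8a1 and Cd44 did not reach the testing limit in this setting, so part of these drops comes from fewer genes tested. The cause of the rest was not tested. With all 18 arrays in 1 fit, Foxd3 against vector had 4 and both against CA-NFATc3 11. Members could there reach the testing limit through knockout arrays, so 37 were tested in place of 18. The part of this in the added calls was not tested. Array weights gave 2 for Foxd3 against vector. The interaction had 1 with an offset of 16, 0 with an offset of 1 and 1 with a filter on the mean, where Col8a1 was not tested. Leaving out 1 array gave 4 to 9 called members for CA-NFATc3 against vector, 4 to 6 for both against vector, 0 to 1 for Foxd3 against vector, 3 to 5 for both against CA-NFATc3, 4 to 5 for both against Foxd3, 0 to 3 for the interaction, 30 to 34 for tamoxifen and 32 to 34 for DMSO against vector. Without a CA-NFATc3 array Col8a1 and Cd44 no longer reached the testing limit in 3 arrays, so part of these drops comes from fewer genes tested.

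With the replicate number as a block, Foxd3 against vector had 2 called members in place of 1, and the block changed no other call than those given in the text, Eln (lost, adjusted p = 0.051) and Mfap2 (gained, 0.0286) in DMSO against vector. Over all genes the block gave 1104 calls for CA-NFATc3 (680 without), 1122 for both (559) and 783 for Foxd3 (334) against vector, 1258 for both against CA-NFATc3 (711), 96 for both against Foxd3 (38) and 245 for the interaction (94). In the knockout arrays same-numbered residuals correlated at -0.0425 to 0.0152, which gives no pairing. The mean of probe sets lowered the number of genes called for both (341) and Foxd3 (220) against vector and both against Foxd3 (25). Quantile normalization moved the median of all genes tested in DMSO against vector from 0.11 to 0.0099 and the share of higher calls from 60.0% to 50.3%; there Col6a2, Ctsk, Eln and Loxl1 no longer passed. Signals under 65.8 carry little information, which limits 25 members in the vector arrays.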
